A study of Mus musculus with 9 samples.

Results

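The expression of 48 genes that act in DNA replication and mitosis was described in DCs of the mouse spleen, in health and in T-cell acute lymphoblastic leukemia (T-ALL). The members were taken by gene name from a table of 54532 genes, and all 48 were found in it: 24 genes that license, start or carry out DNA replication, 20 genes of mitosis, and 4 transcription factors of the cell cycle (E2f1, E2f8, Mybl2 and Foxm1). Bulk RNA-seq had been carried out on 9 samples in 3 groups of 3. N-mDCs were mature conventional DCs (cDCs) of healthy mice, T-mDCs were mature cDCs of mice with T-ALL, and T-DCs were CD11c+MHCIIlo cells of mice with T-ALL. The leukemic mice had received GFP+ leukemia cells, which arose from C57BL/6J bone marrow cells transduced with a retrovirus that carries ICN1, the intracellular domain of Notch1, and the recipients were C57BL/6J or C57B6.SJL mice that were not irradiated. The labels name no further allele or treatment of the leukemic mice. The number of mice behind each sample is not given in the sources used here. Nor do they state whether T-DCs and T-mDCs were sorted from the same mice. The mice of the study in general were female and 6 to 8 weeks old by its methods. The authors deposited FPKM, that is, reads divided by the length of the gene and by a size of the library. Samples are numbered within a group, and 3 values of a group are given in the order of samples 1 to 3. Coordinates are those of the table (mm10). All 48 members passed the filter of at least 1 FPKM in at least 3 samples, which kept 12746 genes for testing.

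A dividing cell first loads the MCM helicase at replication origins, which is called licensing, then fires the origins and copies its DNA in S phase, and separates the copies in mitosis. The E2F transcription factors switch on the genes of licensing and DNA synthesis, and the Myb and FoxM1 factors, with the MuvB complex, switch on the genes of mitosis later in the cycle. Expression of both sets is low in cells that have left the cycle, which is the state of most mature cDCs, whereas their committed precursors divide.

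Depth was similar among the libraries, with 15360815 to 18440913 reads on genes, recovered as whole reads from FPKM and gene length. The member with the fewest reads was Fen1 in N-mDC 1, with 40 reads and 1.06 FPKM (95% Poisson interval 0.755 to 1.44, counting error only), and 2 of the 432 member values rested on fewer than 50 reads. T-mDC 2 and T-mDC 3 differed far less than other pairs of a group did, with a chi-square per gene of 1.85 against 8.11 to 36.1. Nothing states whether they came from separate mice, so that p-values measure the spread between these samples, which may be technical. T-DC 1 stood apart from T-DC 2 and T-DC 3 in the members and in markers of other cells, and results are therefore given with and without it. In a check of the labelled cell type, Zbtb46, a transcription factor of cDCs, was at 16.0, 11.7 and 12.1 FPKM in N-mDCs and 10.7, 23.1 and 23.5 FPKM in T-mDCs, and was lower, at 1.84, 2.84 and 3.42 FPKM, in T-DC 1 to 3. Itgax, which encodes CD11c, was at 152, 90.4 and 43.0 FPKM in T-DCs, against 158 to 230.2 FPKM in N-mDCs.

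The T-DC libraries were split by the expression of the members. In T-DC 2 and T-DC 3, all 48 members were above every N-mDC library and every T-mDC library. In T-DC 1, all 48 were below every T-mDC library. There, 10 of 24 replication genes, 8 of 20 mitosis genes and 3 of 4 transcription factors were below every N-mDC library. In addition, 3 mitosis genes (Ccna2, Ccnb1 and Plk1) were above every N-mDC library in T-DC 1. The share of all tested genes that lay beyond these groups was not counted for single libraries. The median ratio of the replication genes to their N-mDC mean was 0.846, 4.56 and 6.52 in T-DC 1 to 3, and that of the mitosis genes was 0.854, 11.4 and 11.9. For the transcription factors it was 0.786, 9.64 and 10.9. In T-mDC 1 to 3 these medians were 1.51, 1.72 and 1.75 for replication, 2.22, 3.41 and 3.46 for mitosis and 1.95, 2.81 and 2.74 for the transcription factors. In these bulk samples, more dividing cells in a sample and more RNA of these genes per cell cannot be told apart.

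**Figure D1:**
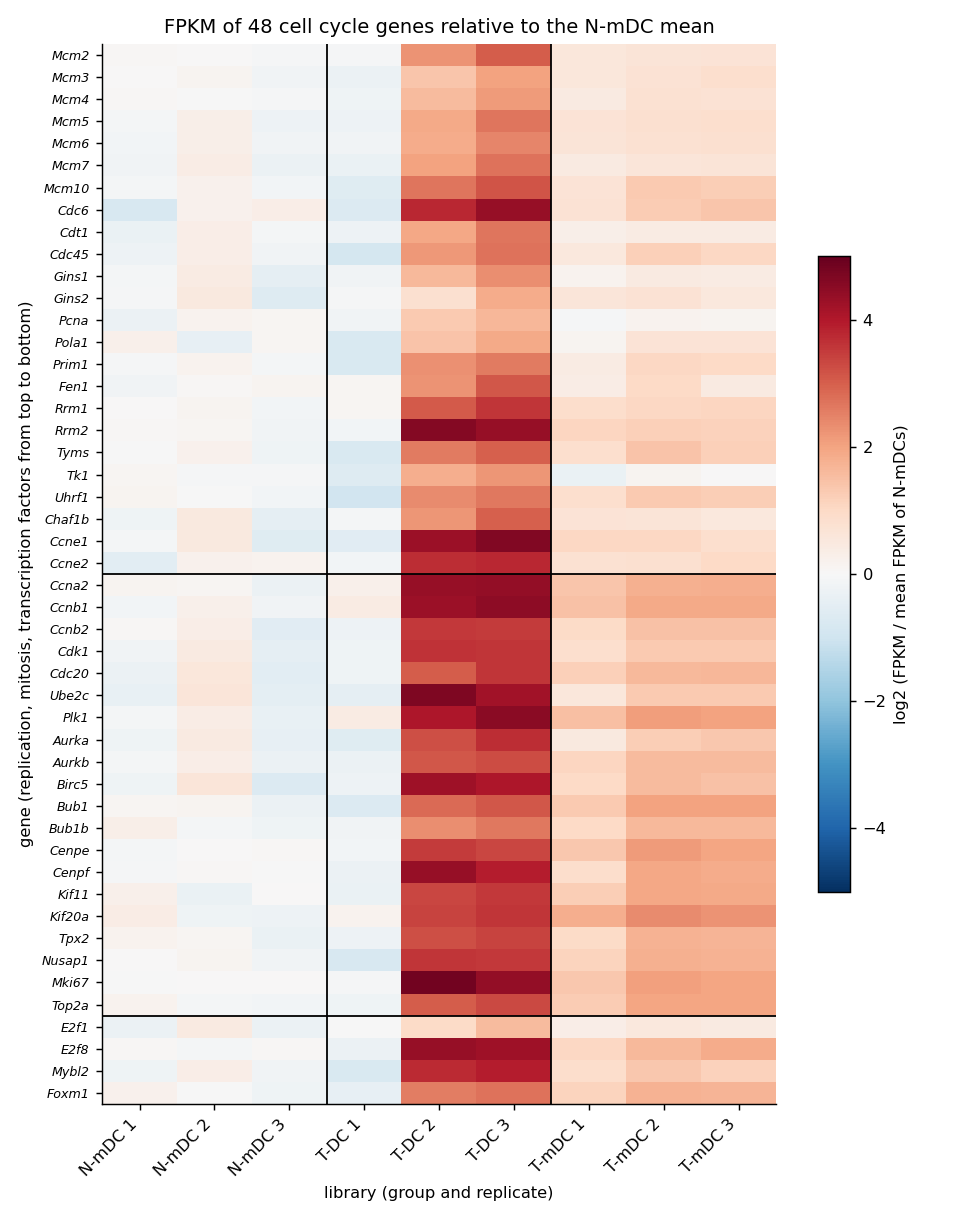
Level of the 48 members in the 9 libraries as log2 of the FPKM over the mean FPKM of N-mDCs, with replication genes at the top, mitosis genes in the middle and transcription factors at the bottom. T-DC 2 and T-DC 3 are high in all 48 rows, and T-DC 1 lies at or under the N-mDC level in most. T-mDCs lie in between in most rows, further above N-mDCs in the mitosis than in the replication genes.

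Among the replication genes, the MCM helicase subunits, which unwind DNA at the fork, had much the same pattern. Mcm5 (chr8:75109569-75128439) was at 19.1, 25.4 and 17.1 FPKM in N-mDCs, 17.4, 76.8 and 132 in T-DCs and 32.6, 36.1 and 36.6 in T-mDCs. T-DC 2 and T-DC 3 were thus 3.74 and 6.45 times the N-mDC mean, whereas T-DC 1 lay within the N-mDC range. Over Mcm2, Mcm3, Mcm4, Mcm5, Mcm6 and Mcm7 the ratio ran from 2.60 (Mcm3) to 4.68 (Mcm2) in T-DC 2, and from 4.06 to 8.17 for these genes in T-DC 3. The loader Cdc6, which brings the helicase to the origin together with Cdt1, was at 1.05, 2.13 and 2.31 FPKM in N-mDCs, 1.14, 25.1 and 37.2 in T-DCs and 3.01, 4.35 and 4.77 in T-mDCs. Its ratio to N-mDCs, 13.7 and 20.4 in T-DC 2 and T-DC 3, was the highest among the licensing genes, and that of Cdt1 was 3.81 and 6.38. Cdc45 and the GINS subunits Gins1 and Gins2 complete the active helicase, and Gins2 had the lowest ratio of all replication genes in T-DC 2 (1.72), with 3.57 in T-DC 3.

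The genes of DNA synthesis differed widely in how far T-DC 2 and T-DC 3 lay above N-mDCs. Pcna (chr2:132249162-132253314), the sliding clamp of the DNA polymerases, had the highest level of all members in N-mDCs and was at 75.2, 104 and 98.6 FPKM in N-mDCs, 81.2, 229 and 293 in T-DCs and 88.0, 104 and 101 in T-mDCs. T-DC 2 and T-DC 3 were 2.47 and 3.16 times the N-mDC mean, and T-mDCs overlapped N-mDCs. The polymerase alpha subunits Pola1 and Prim1, which lay down primers, had ratios of 2.72 and 3.68 and of 4.92 and 5.98, and the flap endonuclease Fen1, which trims Okazaki fragments, had 4.77 and 8.61. Rrm2 (chr12:24708241-24714146), the small subunit of ribonucleotide reductase, was at 16.4, 16.7 and 14.0 FPKM in N-mDCs, 14.2, 381 and 321 in T-DCs and 33.3, 35.6 and 34.8 in T-mDCs. It was 24.2 and 20.5 times the N-mDC mean in T-DC 2 and T-DC 3, and its partner Rrm1, the large subunit, 8.30 and 11.9 times. Thymidylate synthase, Tyms (chr5:30058202-30073617), was at 2.60, 3.05 and 2.30 FPKM in N-mDCs, 1.57, 16.0 and 21.0 in T-DCs and 4.79, 7.17 and 6.05 in T-mDCs, so that T-DC 1 was below all other libraries. Tk1, the thymidine kinase of S phase, was the only replication gene with a T-mDC mean below the N-mDC mean, at 13.5, 12.0 and 12.2 FPKM in N-mDCs, 8.04, 44.9 and 58.3 in T-DCs and 10.1, 13.6 and 12.9 in T-mDCs. Cyclin E, encoded by Ccne1 and Ccne2, drives the entry into S phase. Ccne1 was at 2.45, 3.71 and 1.74 FPKM in N-mDCs, 1.76, 50.7 and 64.5 in T-DCs and 5.33, 5.36 and 4.66 in T-mDCs, and the ratio in T-DC 3, 24.5, was the highest of the replication genes. Uhrf1, which carries DNA methylation over to the new strand, and Chaf1b, which loads histones behind the fork, had ratios of 5.17 and 6.26 and of 4.61 and 7.98.

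The mitosis genes were further from the N-mDC level in T-DC 2 and T-DC 3. Cdk1 (chr10:69335146-69352938), the kinase that starts mitosis, was at 3.64, 5.56 and 2.98 FPKM in N-mDCs, 3.53, 50.4 and 48.6 in T-DCs and 7.34, 10.005 and 10.1 in T-mDCs. Its activator cyclin B1, Ccnb1 (chr13:100778650-100786570), was at 2.91, 3.80 and 2.81 FPKM in N-mDCs, 4.17, 61.0 and 69.7 in T-DCs and 8.70, 11.7 and 11.9 in T-mDCs. Unlike Cdk1, Ccnb1 was above all N-mDC libraries in T-DC 1 too, as were Ccna2, which encodes cyclin A2, at 7.03, 121 and 125 FPKM in T-DCs against 6.58, 6.31 and 4.84 FPKM in N-mDCs, and the mitotic kinase Plk1, at 6.17, 76.5 and 108 FPKM against 4.36, 6.13 and 3.58 FPKM. These were the 3 mitosis genes whose T-DC and N-mDC libraries did not overlap, a share of 3 in 20 where 16% of all tested genes were higher in T-DCs without overlap. None of the 24 replication genes and none of the 4 transcription factors was free of overlap in that comparison.

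Cdc20 and Ube2c serve the anaphase-promoting complex, which ends mitosis by destroying cyclin B. Ube2c was at 8.73, 17.3 and 8.13 FPKM in N-mDCs, 8.40, 289 and 207 in T-DCs and 17.1, 28.5 and 28.2 in T-mDCs, so that T-DC 2 was 25.4 times the N-mDC mean, and the ratios of Cdc20 were 8.07 and 11.9. The Aurora kinases, which build the spindle (Aurka) and correct the attachment of chromosomes (Aurkb), had ratios of 9.46 and 12.9 and of 8.61 and 9.51, and Birc5, the survivin subunit of the Aurkb complex, had 19.0 and 16.5. The checkpoint kinases Bub1 and Bub1b, which delay anaphase until all chromosomes are attached, had ratios of 7.20 and 8.51 and of 5.05 and 6.14, and Bub1b had the lowest ratio of the mitosis genes in both libraries. At the kinetochore, Cenpe was at 11.2 and 10.1 and Cenpf at 20.7 and 15.2 times the N-mDC mean. The spindle motors Kif11 and Kif20a had ratios of 10.03 and 11.7 and of 10.3 and 12.1, and the microtubule proteins Tpx2 and Nusap1 of 9.41 and 10.5 and of 11.8 and 11.7. Mki67 (chr7:135689784-135716361), which encodes the proliferation marker Ki-67, was at 8.50, 8.70 and 8.80 FPKM in N-mDCs, 8.25, 247 and 183 in T-DCs and 21.9, 36.2 and 34.3 in T-mDCs. The ratio in T-DC 2, 28.5, was the highest of all members, whereas T-DC 1 was below the lowest N-mDC library. Top2a (chr11:98992943-99024189), the topoisomerase that untangles sister chromatids, was at 11.4, 9.34 and 9.21 FPKM in N-mDCs, 8.68, 82.0 and 98.4 in T-DCs and 23.9, 39.1 and 38.7 in T-mDCs.

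Of the transcription factors, E2f1 (chr2:154559407-154569892), an activator of S phase genes, had the smallest ratios and was at 8.19, 13.6 and 8.28 FPKM in N-mDCs, 9.88, 19.7 and 30.2 in T-DCs and 12.8, 14.5 and 13.7 in T-mDCs. E2f8, an E2F family repressor that is itself a target of the E2F factors, was at 2.59, 2.29 and 2.55 FPKM in N-mDCs, 2.01, 50.1 and 46.4 in T-DCs and 5.10, 7.67 and 8.93 in T-mDCs. Mybl2, which encodes B-Myb, had ratios of 13.4 and 15.2 in T-DC 2 and T-DC 3. Foxm1 (chr6:128362967-128376146), the forkhead factor of the late cell cycle genes, was at 4.36, 3.73 and 3.31 FPKM in N-mDCs, 2.89, 22.4 and 25.1 in T-DCs and 8.17, 12.6 and 12.4 in T-mDCs. All 4 were thus high in T-DC 2 and T-DC 3. E2f8, Mybl2 and Foxm1 were intermediate in T-mDCs and below the N-mDC range in T-DC 1. E2f1 lay inside that range in T-DC 1, and its T-mDC and N-mDC libraries overlapped.

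**Figure D2:**
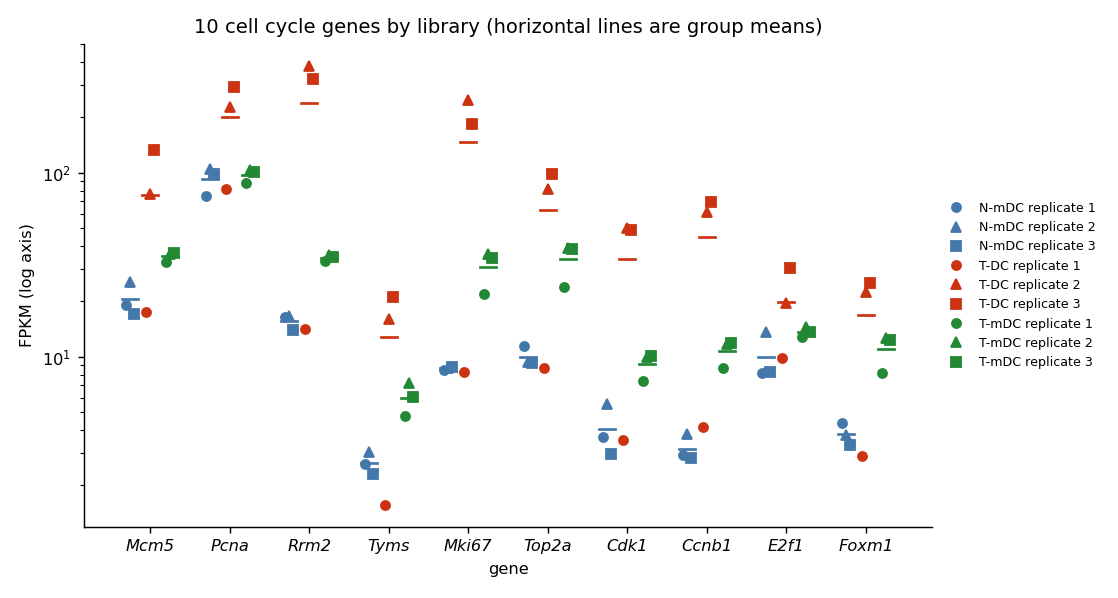
FPKM of 10 members on a log axis in each library, with a symbol for each replicate and a horizontal line at the mean of each group (n = 3). T-DC 2 and T-DC 3 are above all other libraries for each gene, and T-DC 1 is below all T-mDC libraries for each gene.

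With this split, the comparison of T-DCs with N-mDCs passed the test for 0 of the 48 members, where 16.4% of all 12746 genes were called, 6.1% higher and 10.3% lower (limma on log2(FPKM + 1), Benjamini-Hochberg adjusted p under 0.05). All 48 estimates were positive. The median log2 fold change was 1.38 for the replication genes, 2.09 for the mitosis genes and 1.81 for the transcription factors, against 0.05 over all genes tested. At an unadjusted p under 0.05 there were 13 of 24 replication genes, 18 of 20 mitosis genes and 4 of 4 transcription factors, where 35.1% of all genes had such a p and 18% were higher with it. The lowest limma adjusted p was that of Ccnb1, 0.0575, with a log2 fold change of 2.77 (SE 0.85). Mki67 had a log2 fold change of 2.96 (SE 1.05) and Rrm2 of 2.89 (SE 1.04), with limma adjusted p of 0.0849 and 0.0877. For Pcna it was 0.93 (SE 0.42) and for E2f1 0.83 (SE 0.36), with limma adjusted p of 0.152 and 0.140. The spread within T-DCs, from below the N-mDC level to many times above it, was as large as the estimates.

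Without T-DC 1, the same comparison called 24 of 24 replication genes, 20 of 20 mitosis genes and 4 of 4 transcription factors as higher in T-DCs, where 20.5% of all genes were called higher. The log2 fold change was then 4.47 (SE 0.24) for Mki67, 4.396 (SE 0.16) for Rrm2, 3.996 (SE 0.19) for Ccnb1 and 1.24 (SE 0.26) for E2f1, with limma adjusted p of 2.07e-05, 1.06e-05, 1.95e-05 and 0.00672. The medians were 2.22 for replication, 3.27 for mitosis and 2.91 for the transcription factors. With T-DC 1 as the only T-DC library, and the spread taken from the other groups on the assumption that it varies like them, 0 of 48 members were called against N-mDCs, where 2.31% of all genes were higher and 3.55% lower. The medians were then -0.21 for replication, -0.14 for mitosis and -0.25 for the transcription factors. At an unadjusted p under 0.05 there were then 2 replication genes, against 25.7% of all genes. These fits rest on 2 and 1 T-DC libraries, and T-DC 2 and T-DC 3 were left out of the latter after their values had been seen. The fit without T-DC 1 was likewise singled out because of the values of the members themselves. All 48 were already above every N-mDC library in T-DC 2 and T-DC 3, so its calls are no further support.

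Between T-DCs and T-mDCs, which both came from leukemic mice, 0 of 48 members passed the test, where 14.2% of all genes were called (5.44% higher, 8.79% lower), and 0 of 48 had an unadjusted p under 0.05, against 30.1% of all genes. This comparison shares the T-DC libraries with the one above. All estimates were positive, with medians of 0.84 for replication, 0.82 for mitosis and 0.80 for the transcription factors, against 0.07 over all genes. Rescaling to TPM moved the median of all genes to -0.23 in this comparison and to 0.23 between T-mDCs and N-mDCs, and the member medians moved to 0.54, 0.48 and 0.48 and to 0.94, 1.72 and 1.42, so that relative to all genes they were 0.77, 0.71 and 0.71 and 0.71, 1.49 and 1.19. Without T-DC 1, 23 of 24 replication genes, 20 of 20 mitosis genes and 4 of 4 transcription factors were called higher in T-DCs, where 18.3% of all genes were, and the exception was Gins2. That fit too was singled out by the values of the members, so its calls are no further support. Array weights, which weigh each library by its spread in a fit that did not fully converge, called 48 of 48 members higher than in N-mDCs and 47 higher than in T-mDCs, but with 33.9% and 40.7% of all genes called higher. With T-DC 1 as the only T-DC library the direction turned, and 6 of 24 replication genes, 12 of 20 mitosis genes and 3 of 4 transcription factors were called lower than in T-mDCs, where 3.51% of all genes were. Mki67 then had a log2 fold change of -1.75 (SE 0.29) and Rrm2 of -1.23 (SE 0.18), with limma adjusted p of 0.0405 and 0.0374.

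Markers of other cells moved with the members among the T-DC libraries. The 18 markers of erythroid cells, of which 17 passed the filter, summed to 670.3, 61747 and 45110.5 FPKM in T-DCs, 128, 5428 and 528 in N-mDCs and 218, 52.2 and 45.7 in T-mDCs. All 18 were above every N-mDC and T-mDC library in T-DC 2 and T-DC 3, where the share of all tested genes was not counted. Gata1 and Klf1, which direct red cell development, were at 1.24, 108 and 124 and 3.65, 278 and 348 FPKM in T-DCs, against 1.83 and 3.09 FPKM at most in N-mDCs. The 12 markers of neutrophil precursors summed to 9.71, 4431 and 1556 FPKM in T-DCs, 57.4, 417 and 668 in N-mDCs and 4.15, 16.1 and 14.6 in T-mDCs. Among them, Mpo was at 0.0489, 46.0 and 18.2 and Elane at 0, 83.2 and 32.9 FPKM in T-DCs. The part of these cells in the result was not tested. N-mDC 2, the N-mDC library with the most erythroid markers, also had the highest sums of replication and mitosis genes of its group. These were 271, 332 and 278 and 122, 146 and 99.3 FPKM in N-mDCs. N-mDC 1, with the fewest erythroid markers, had a higher mitosis sum than N-mDC 3. T-mDC 1, the T-mDC library with the most erythroid markers, had the lowest sums of its group. Those were 390, 458 and 453 and 266, 404 and 400 FPKM in T-mDCs. With the erythroid list as a covariate, which separates T-DC 1 from the other T-DC libraries, 0 of 48 members were called in either T-DC comparison, where 1.16% of all genes were higher and 2.62% lower than in N-mDCs and 0% either way against T-mDCs. The member medians against T-mDCs were then -1.31 for replication, -2.11 for mitosis and -1.96 for the transcription factors.

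The leukemia cells themselves are of the T lineage, and markers of that lineage differed between T-DC 2 and T-DC 3. The 22 T lineage markers, of which 15 passed the filter, summed to 39.8, 124 and 33.7 FPKM in T-DCs, 208, 247 and 226 FPKM in N-mDCs and 88.9, 172 and 168 FPKM in T-mDCs, with Cd3e at 0.0684, 1.28 and 0.0646 FPKM in T-DCs. Of these 22 markers, 10 were above every N-mDC library in T-DC 2 and 2 in T-DC 3, and 4 and 16 were below. Against T-mDCs, 4, 19 and 8 were above every library in T-DC 1 to 3, and 11, 3 and 6 were below. These counts include the markers that did not pass the filter, and the share of all tested genes was not counted for single libraries. The part of leukemia cells in the result was not tested. The 10 B lineage markers summed to 521, 4234 and 1575 FPKM in T-DCs, 886, 4275 and 1597 in N-mDCs and 2051, 366 and 372 in T-mDCs. The 8 NK cell markers summed to 11.04, 35.6 and 8.98 FPKM in T-DCs, 150.3, 197 and 225 in N-mDCs and 28.2, 45.5 and 41.8 in T-mDCs. The NK cell sum was thus lower in all leukemic libraries than in N-mDCs, and the B lineage sum varied within each group. Gene by gene, 10, 7 and 8 of the 10 B lineage markers were below every N-mDC library in T-DC 1 to 3. In T-DC 2, 2 were above. In T-mDC 1 to 3, 3, 10 and 10 were below, again without a share of all tested genes. The 9 markers of early progenitors summed to 77.9, 44.7 and 50.04 FPKM in T-DCs, 157, 109 and 127 in N-mDCs and 129, 149 and 153 in T-mDCs. The 16 cDC markers summed to 2432, 2692 and 1746 FPKM in T-DCs, 18653, 20507 and 14225 in N-mDCs and 9814, 13591 and 13738 in T-mDCs. They include Cd74 and H2-Ab1 of the MHCII pathway, and T-DCs were sorted as MHCIIlo, so that the sum is not independent of the gate. The median ratio of the cDC markers to their N-mDC mean was 0.344, 0.191 and 0.0795 in T-DC 1 to 3. Flt3, which stands in the progenitor and the cDC lists, was at 15.4, 6.11 and 4.48 FPKM in T-DCs.

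**Figure D3:**
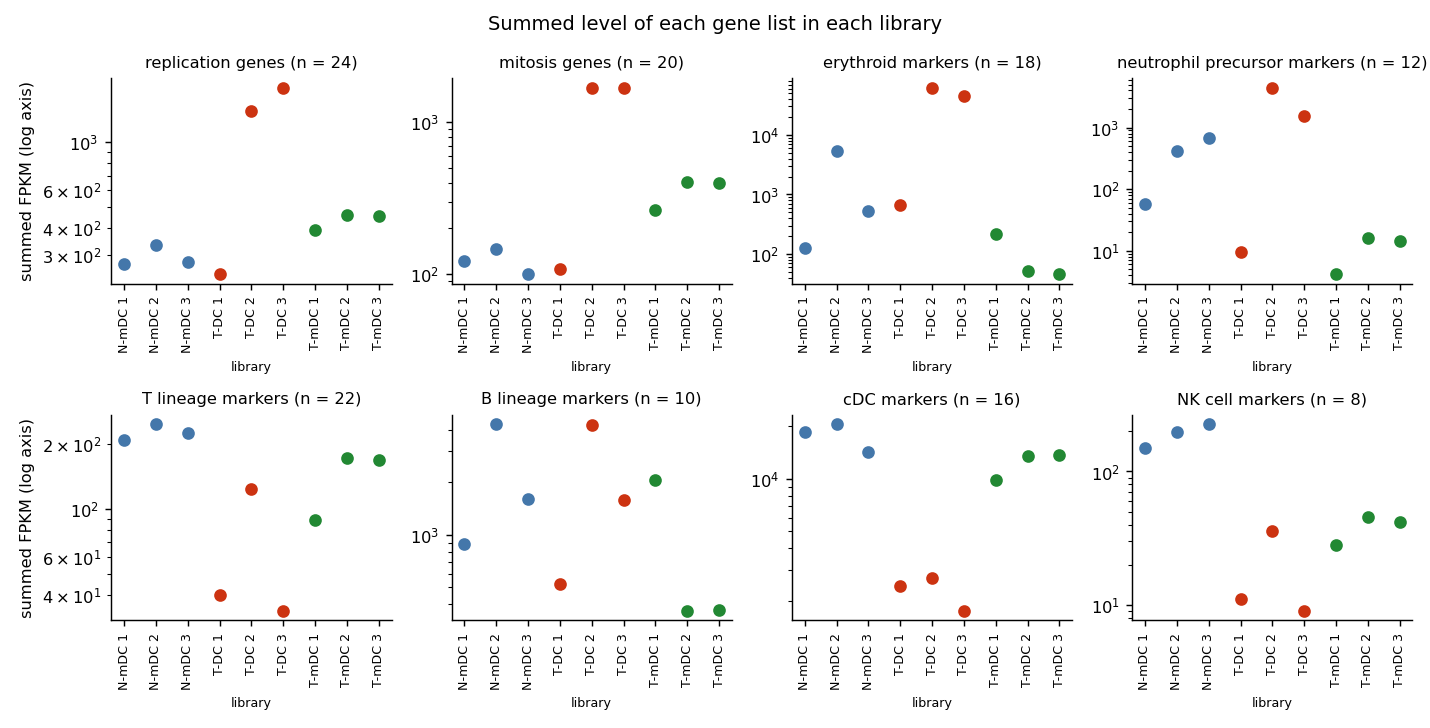
Summed FPKM of 8 gene lists on a log axis, with a point for each library and colours for N-mDCs (blue), T-DCs (red) and T-mDCs (green). T-DC 2 and T-DC 3 are the highest libraries for the replication, mitosis, erythroid and neutrophil precursor lists, and N-mDC 2 is the next highest for the erythroid list.

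Among mature cDCs, the mean FPKM of all members but Tk1 was higher in T-mDCs than in N-mDCs, by a ratio of at most 4.48, although 0 of 48 passed the test of all 9 libraries. The medians of the mitosis genes lay further above N-mDCs than those of the replication genes, a difference that was not tested. Of the mitosis genes, 19 of 20 were higher in every T-mDC library than in every N-mDC library, and of the replication genes 19 of 24, where 19.3% of all tested genes were higher without overlap and 15.7% lower. Among the transcription factors these were E2f8, Mybl2 and Foxm1. The members that overlapped were Cdt1, Gins1, Pcna, Pola1, Tk1, Ube2c and E2f1. The largest ratio of the T-mDC mean to the N-mDC mean was that of Kif20a, 4.48, with 8.75, 13.0 and 11.9 FPKM in T-mDCs and 3.23, 2.16 and 2.10 FPKM in N-mDCs. Plk1 followed with 3.68, Cenpe with 3.65, Mki67 with 3.55 and Bub1 with 3.51. Among the replication genes the largest ratios were those of Tyms (2.26), Uhrf1 (2.23), Cdc6 (2.21) and Rrm2 (2.20), and Pcna (1.05) and Tk1 (0.970) were close to 1.

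In the fit of all 9 libraries, 0 of 48 members passed the test between T-mDCs and N-mDCs, where 2.21% of all genes were called (0.69% higher, 1.52% lower), and 1 mitosis gene had an unadjusted p under 0.05, against 16.7% of all genes. The estimates were positive for 20 of 20 mitosis genes, 23 of 24 replication genes and 4 of 4 transcription factors, with medians of 1.39, 0.66 and 1.06 on the log2 scale, against 0.03 over all genes. That fit takes its spread from all groups, the split T-DCs included. With only these 2 groups in the fit, 16 of 20 mitosis genes, 8 of 24 replication genes and 3 of 4 transcription factors were called higher in T-mDCs, where 2.84% of all genes were called higher. Mki67 then had a log2 fold change of 1.69 (SE 0.20), Top2a of 1.64 (SE 0.22) and Foxm1 of 1.31 (SE 0.19), with limma adjusted p of 0.0131, 0.0154 and 0.0198, whereas Pcna and E2f1 were not called (0.08 and 0.44, limma adjusted p = 0.782 and 0.227). Without T-DC 1 but with T-DC 2 and T-DC 3 in the fit, 18, 5 and 3 were called, where 3.46% of all genes were called higher. With array weights 20, 16 and 4 were called, where 14.8% of all genes were higher, and with the erythroid covariate 13, 0 and 1, where 1.62% were. These calls rest on T-mDC 2 and T-mDC 3 as separate samples. With their mean as 1 sample and only these groups in the fit, 0 of 48 members were called, where 0.126% of all genes were called higher. At an unadjusted p under 0.05 there were 20 of 20 mitosis genes, 15 of 24 replication genes and 3 of 4 transcription factors, where 16.3% of all genes had such a p and 7.2% were higher with it. Erythroid markers were lower in T-mDCs than in N-mDC 2 and N-mDC 3, and B lineage markers were higher in T-mDC 1 than in T-mDC 2 and T-mDC 3, with values given above. The summed NK cell markers were lower in all T-mDC libraries than in all N-mDC libraries. Their part in the result was not tested.

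The balance between mitosis and replication genes, taken from summed FPKM, differed among the libraries. Such sums give most weight to the most abundant genes, which was Pcna among the replication genes of N-mDCs. The summed FPKM of the mitosis genes was 0.452, 0.439 and 0.357 of that of the replication genes in N-mDC 1 to 3, 0.680, 0.882 and 0.882 in T-mDC 1 to 3, and 0.440, 1.21 and 0.933 in T-DC 1 to 3. T-DC 1 was thus within the range of N-mDCs, and all T-mDC libraries were above it. T-DC 2 and T-DC 3 differed from each other in this balance. In T-DC 3, 23 of 24 replication genes were above their level in T-DC 2, with a median ratio of 1.48, and the exception was Rrm2. Of the mitosis genes 12 of 20 were, with a median ratio of 1.11. Of all 12746 tested genes, 5767 were higher in T-DC 3, with a median ratio of 0.958, and the difference between both classes was not tested. Among T-mDCs, all 20 mitosis genes and 22 of 24 replication genes were lower in T-mDC 1 than the mean of T-mDC 2 and T-mDC 3, with median ratios of 0.645 and 0.864, and all tested genes had a median of 0.972.

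**Figure D4:**
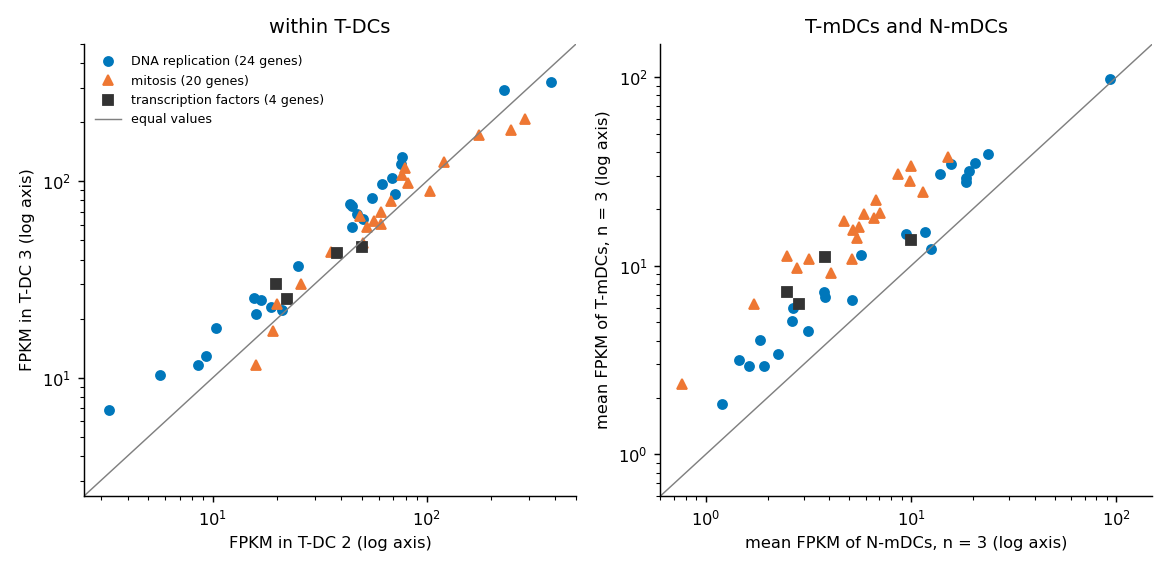
FPKM of each member on log axes, in T-DC 3 against T-DC 2 on the left and as the mean of T-mDCs against the mean of N-mDCs (n = 3 each) on the right, with a line of equal values. Within T-DCs, 23 of 24 replication genes and 12 of 20 mitosis genes lie above the line, where 5767 of 12746 tested genes do, and on the right 20 of 20 mitosis genes and 23 of 24 replication genes lie above it.

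Promoters of the late cell cycle are known for the CHR element, bound by MuvB complexes, and for CCAAT boxes, bound by NF-Y, whereas E2F sites are known from the promoters of replication genes. Promoters of 300 bases, 250 before to 50 after the start, were taken from RefSeq (GRCm38.p6) for the 39 members that had one, 42 promoters in all, and were compared with all 32851 promoters of that table. Aurkb, Ccna2, Mcm4, Tpx2, Gins1, Ccne2, Gins2, Kif20a and Foxm1 had no entry. The motifs searched on both strands were TTTGAA for the CHR and the CCAAT box itself. For E2F, the core searched was TTTCCCG. The form TTTCGCG was counted as a match too. The form TTTGCCG was likewise counted, and so was the related form TTTGGCG of this core. TTTGAA was in 11 of 16 mitosis promoters (68.8%), 3 of 23 replication promoters (13.0%) and 17.9% of all promoters. CCAAT was in 14 of 16 mitosis promoters (87.5%), 15 of 23 replication promoters (65.2%) and 37.4% of all. At least 2 CCAAT boxes were in 62.5% of mitosis promoters, 39.1% of replication promoters and 11.7% of all. The E2F core was in 10 of 23 replication promoters (43.5%), 3 of 16 mitosis promoters (18.8%) and 6.70% of all. TTTGAA and CCAAT stood together in the same 11 mitosis promoters and in 6.95% of all promoters. A match is a run of letters and was not shown to be bound in these cells.

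The 200 bases before the start are shown for 3 replication and 3 mitosis genes with a motif there, those furthest above N-mDCs without T-DC 1, and for Mcm5 and Cdk1 because they hold several motifs, all chosen after their values and motifs had been seen. Each is written along the strand of its gene and ends 1 base before the RefSeq start. All motifs are in capitals, in the reverse complement where they lie on the other strand (ATTGG for a CCAAT box, and TTCAAA for the CHR letters). RefSeq starts can differ from the gene coordinates given above, by which the stretches of Rrm2 and Cdk1 reach into the gene. Rrm2 (chr12:24708054-24708253, plus strand), Cdc6 (chr11:98907951-98908150, plus), Rrm1 (chr7:102441495-102441694, plus) and Mcm5 (chr8:75109309-75109508, plus) are replication genes. Mki67 (chr7:135716380-135716579, minus), Ube2c (chr2:164769729-164769928, plus), Plk1 (chr7:122159235-122159434, plus) and Cdk1 (chr10:69352913-69353112, minus) are mitosis genes.
Rrm2: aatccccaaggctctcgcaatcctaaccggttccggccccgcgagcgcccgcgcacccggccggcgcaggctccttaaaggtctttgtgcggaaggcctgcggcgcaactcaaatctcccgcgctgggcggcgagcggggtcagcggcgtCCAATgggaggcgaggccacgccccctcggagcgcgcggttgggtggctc
Cdc6: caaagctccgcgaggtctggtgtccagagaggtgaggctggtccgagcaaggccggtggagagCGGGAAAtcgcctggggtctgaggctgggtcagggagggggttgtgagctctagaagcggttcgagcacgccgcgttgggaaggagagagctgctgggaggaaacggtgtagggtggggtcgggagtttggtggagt
Rrm1: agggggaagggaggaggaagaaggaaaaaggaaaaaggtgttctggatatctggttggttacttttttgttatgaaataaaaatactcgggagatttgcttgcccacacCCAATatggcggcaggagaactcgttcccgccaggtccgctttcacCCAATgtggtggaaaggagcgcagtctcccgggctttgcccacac
Mcm5: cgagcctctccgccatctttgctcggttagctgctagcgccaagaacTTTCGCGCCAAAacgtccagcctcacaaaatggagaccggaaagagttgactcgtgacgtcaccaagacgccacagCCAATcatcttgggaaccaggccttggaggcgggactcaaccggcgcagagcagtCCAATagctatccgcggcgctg
Mki67: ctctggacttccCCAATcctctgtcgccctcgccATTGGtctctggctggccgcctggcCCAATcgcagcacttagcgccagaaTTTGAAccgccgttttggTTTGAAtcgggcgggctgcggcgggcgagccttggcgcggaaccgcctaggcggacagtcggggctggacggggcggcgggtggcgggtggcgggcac
Ube2c: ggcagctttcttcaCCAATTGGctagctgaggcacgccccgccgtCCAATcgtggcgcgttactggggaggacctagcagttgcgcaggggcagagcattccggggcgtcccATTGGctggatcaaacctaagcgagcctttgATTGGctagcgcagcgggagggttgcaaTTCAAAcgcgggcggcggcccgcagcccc
Plk1: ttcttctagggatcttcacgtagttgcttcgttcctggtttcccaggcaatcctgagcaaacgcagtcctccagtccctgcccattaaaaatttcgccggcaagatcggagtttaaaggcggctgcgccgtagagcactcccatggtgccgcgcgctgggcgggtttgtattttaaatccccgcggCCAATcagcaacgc
Cdk1: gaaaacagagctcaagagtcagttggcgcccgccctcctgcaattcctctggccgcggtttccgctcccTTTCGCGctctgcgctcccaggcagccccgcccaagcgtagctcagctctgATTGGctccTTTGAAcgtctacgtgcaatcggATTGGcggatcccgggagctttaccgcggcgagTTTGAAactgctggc
In Mki67, TTTGAA stood at 116 and 98 bases before the start, downstream of 3 CCAAT boxes at 188, 166 and 141 bases. Cdk1 had TTTGAA at 71 and 15 bases, an ATTGG box at 80 and at 48 bases, and an E2F core at 131 bases before the start. Ube2c had TTCAAA at 29 bases and boxes on both strands, of which those at 186 and 183 bases overlap. In Plk1 the CCAAT box stood at 14 bases, and its TTTGAA lay after the start, outside the stretch shown. Mcm5 had E2F cores on both strands at 153 and 148 bases, which overlap, and CCAAT at 77 and 22 bases, without TTTGAA in its promoter, and in Rrm2 the stretch held CCAAT alone, at 50 bases.

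Other genes of the cell cycle, which are not members, were mostly higher in T-DC 2 and T-DC 3 as well. Of 42 further replication genes, all of which passed the filter, 41 were above every N-mDC library in T-DC 2 and 41 in T-DC 3. Of 63 further mitosis genes, 61 and 61 were. The share of all tested genes was not counted for these single libraries. The test called 2 of 42 and 3 of 62 between T-DCs and N-mDCs, where 16.4% of all genes were called. In 4 of these 5 genes, T-DC 1 was above all N-mDC libraries too. Hjurp, the chaperone that loads the centromeric histone, was at 12.9, 13.3 and 13.0 FPKM in N-mDCs, 32.7, 40.9 and 45.5 in T-DCs and 21.2, 22.2 and 22.2 in T-mDCs, and its log2 fold change against N-mDCs was 1.52 (SE 0.16) (limma adjusted p = 0.00135). Cks2, a small subunit of cyclin-dependent kinases (CDKs), was at 26.2, 40.2 and 39.2 FPKM in N-mDCs, 65.1, 219 and 248 in T-DCs and 47.4, 43.6 and 45.3 in T-mDCs, with a log2 fold change of 2.11 (SE 0.46) (limma adjusted p = 0.0176). Incenp, a partner of Aurkb, Pola2, a subunit of polymerase alpha, and Rnaseh2a, which removes RNA from DNA, were called too, with 1.76, 1.24 and 1.12 and limma adjusted p of 0.0444, 0.0435 and 0.0439. Against T-mDCs, Hjurp (0.82), Cks2 (1.72) and Rnaseh2a (1.25) were called higher, with limma adjusted p of 0.0145, 0.0389 and 0.0340. Hjurp kept its call against N-mDCs whichever library was left out. Cks2 lost it without N-mDC 1, N-mDC 3, T-DC 2 or T-DC 3, and Incenp, Pola2 and Rnaseh2a lost it in 8, 8 and 7 of the 9 fits that leave out a library. Against T-mDCs, Hjurp lost its call without T-DC 2, T-mDC 2 or T-mDC 3, and Cks2 and Rnaseh2a in 8 and 7 of the 9.

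A pair of mitosis genes outside the members had another pattern. Cep55, which acts in the final separation of daughter cells, was at 4.51, 3.82 and 3.43 FPKM in N-mDCs, 3.09, 2.81 and 2.09 in T-DCs and 10.4, 16.0 and 15.9 in T-mDCs. All T-DC libraries were below all others, T-DC 2 and T-DC 3 included. Its log2 fold change was -2.03 (SE 0.21) against T-mDCs (limma adjusted p = 0.00177), and it was higher in T-mDCs than in N-mDCs by 1.60 (SE 0.21) (limma adjusted p = 0.0124). Pttg1, which encodes securin, the guard of sister chromatid cohesion, was at 15.7, 20.2 and 15.0 FPKM in N-mDCs, 11.3, 15.3 and 12.5 in T-DCs and 7.999, 8.10 and 8.56 in T-mDCs, so that T-mDCs were below both other groups. Between T-mDCs and N-mDCs its log2 fold change was -0.95 (SE 0.18) (limma adjusted p = 0.0351). Cep55 and Pttg1 were the 2 of 62 further mitosis genes called in that comparison.

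More of the genes that set the entry into the cycle passed the test. Of 30 tested CDK regulators, E2F and MuvB genes and their antagonists, 11 were called between T-DCs and N-mDCs (5 higher, 6 lower), 8 between T-DCs and T-mDCs (3 higher, 5 lower) and 5 between T-mDCs and N-mDCs (3 higher, 2 lower), where 16.4%, 14.2% and 2.21% of all genes were called. Ccnd1, which encodes cyclin D1, was at 77.5, 32.8 and 46.8 FPKM in N-mDCs, 8.55, 7.81 and 4.94 in T-DCs and 29.5, 67.4 and 63.3 in T-mDCs. T-DCs were below all other libraries, with log2 fold changes of -2.66 (SE 0.40) against N-mDCs and -2.69 (SE 0.40) against T-mDCs (limma adjusted p = 0.00435 and 0.00445). Ccnd3, which encodes cyclin D3, went the other way and was at 10.5, 14.6 and 13.6 FPKM in N-mDCs, 27.0, 58.7 and 63.0 in T-DCs and 16.5, 14.6 and 13.7 in T-mDCs, with 1.79 (SE 0.31) against N-mDCs and 1.58 (SE 0.31) against T-mDCs (limma adjusted p = 0.00751 and 0.0131). Ccnd2 and Cdk4 were not called in any comparison, with 12.6, 15.4 and 10.6 and 22.5, 42.6 and 73.6 FPKM in T-DCs and 12.9, 6.86 and 12.4 and 30.9, 40.05 and 27.1 FPKM in N-mDCs. Cdk6, the other kinase of the D cyclins, was at 2.05, 1.51 and 2.33 FPKM in N-mDCs, 4.26, 5.34 and 6.31 in T-DCs and 7.44, 8.01 and 7.85 in T-mDCs, higher than in N-mDCs by 1.08 in T-DCs and by 1.57 in T-mDCs (limma adjusted p = 0.00650 and 0.00834).

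The CDK inhibitors did not move together. Cdkn1a, which encodes p21, was at 38.4, 44.6 and 58.8 FPKM in N-mDCs, 12.6, 15.4 and 7.17 in T-DCs and 12.2, 15.4 and 15.7 in T-mDCs. It was lower in both cell groups from leukemic mice, by log2 fold changes of -1.96 in T-DCs and -1.63 in T-mDCs (limma adjusted p = 0.00353 and 0.0263). The antiproliferative gene Btg2 fell likewise, from 1054, 900.1 and 739 FPKM in N-mDCs to 288, 175 and 135 FPKM in T-DCs and 155, 182 and 176 FPKM in T-mDCs, with -2.22 and -2.37 (limma adjusted p = 0.00225 and 0.00957). Cdkn2a and Cdkn2b, neighbouring genes that encode p16, p19Arf and p15, were highest in T-mDCs and lowest in T-DCs. Cdkn2a was at 1.91, 2.86 and 2.21 FPKM in N-mDCs, 1.00, 1.05 and 0.506 in T-DCs and 7.77, 9.18 and 10.1 in T-mDCs, with -2.44 (SE 0.19) for T-DCs against T-mDCs and 1.59 (SE 0.19) for T-mDCs against N-mDCs (limma adjusted p = 0.000955 and 0.0101). Cdkn2b was at 6.53, 2.32 and 2.26 FPKM in N-mDCs, 0.562, 1.16 and 0.663 in T-DCs and 11.5, 18.02 and 19.0 in T-mDCs, with -3.24 (SE 0.35) and 1.95 (SE 0.35) (limma adjusted p = 0.00178 and 0.0297). Cdkn2d, which encodes p19Ink4d, was at 7.96, 21.7 and 18.9 FPKM in N-mDCs, 44.1, 165 and 109 in T-DCs and 21.5, 13.2 and 13.6 in T-mDCs and rose by 2.55 (SE 0.51) against N-mDCs (limma adjusted p = 0.0132). Cdkn2c, which encodes p18Ink4c, followed the split of the members, with 7.42, 72.8 and 72.2 FPKM in T-DCs and 6.52 to 14.4 FPKM in all other libraries, and was not called. Cdkn1b, which encodes p27, was at 95.9, 74.3 and 49.1 FPKM in T-DCs, highest in T-DC 1, and was not called, and Cdkn1c did not pass the filter. Among the E2F genes outside the members, E2f2, named after its values were seen, was at 9.83, 14.8 and 10.7 FPKM in N-mDCs, 15.8, 245 and 187 in T-DCs and 13.5, 12.1 and 13.4 in T-mDCs. Its level in T-DC 2 and T-DC 3 was far above that in T-DC 1, and unlike in the members T-DC 1 was itself above all N-mDC and T-mDC libraries. E2f2 was not called in any comparison. All calls between T-mDCs and N-mDCs named here, those of Cep55 and Pttg1 included, were lost without T-mDC 2, without T-mDC 3 and, in the fit of all groups, with their mean as 1 sample. With that mean and only these groups in the fit, Btg2 and Cdk6 kept their calls (limma adjusted p = 0.0424 and 0.0491) and the others lost theirs. Those of Cdkn2b and Cep55 were also lost without N-mDC 2 or N-mDC 3, that of Cdkn1a without these or T-mDC 1, and that of Pttg1 whichever N-mDC or T-mDC library was left out. Between T-DCs and T-mDCs, Ccnd3 and Cdkn2d were lost without T-mDC 2, T-mDC 3 or T-DC 2, and Cdkn2d without T-DC 3 as well. The calls of Ccnd1, Cdkn2a, Cdkn2b and Cep55 were kept whichever library was left out.

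**Figure D5:**
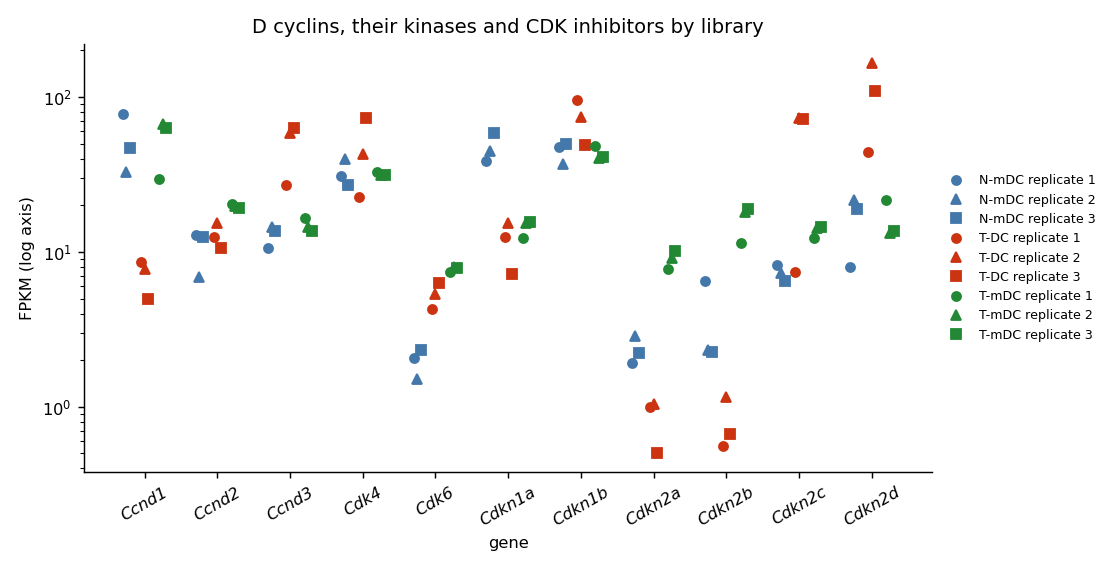
FPKM of the D cyclins, their kinases and the CDK inhibitors that passed the filter, on a log axis, with a symbol for each replicate of N-mDCs (blue), T-DCs (red) and T-mDCs (green). Ccnd1 is lowest and Ccnd3 highest in T-DCs, Cdkn2a and Cdkn2b are highest in T-mDCs, and Cdkn2c repeats the split of T-DC 1 from T-DC 2 and T-DC 3 seen in the members.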

How the data were processed

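RNA-seq was carried out on 9 samples, which the labels put in 3 groups of 3. The authors deposited FPKM per gene, on the mouse build mm10 per the labels. The aligner, the counter, the use of strand, the handling of reads that map to several genes and the test are not given in the sources used here, so that reads of close copies may be split. Whole reads were recovered by multiplying the FPKM with the deposited gene length, and came within 5.8e-05 of a whole number. Of the 48 members, 47 have the same coordinates in GENCODE M21, and coordinates are those of the table. Intervals cover counting error only.

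Genes that reached 1 FPKM in 3 or more samples were tested on log2(FPKM + 1) with limma 3.58.1 in R 4.3.3 (all 9 samples in a single fit, empirical Bayes with trend, Benjamini-Hochberg adjustment over 12746 genes, threshold 0.05, two-sided), which was tested on simulated data. A pseudocount of 1 understates the fold change of low genes. The members, the lists of other cell cycle genes and of markers, and the tests were chosen with earlier results of these data known. Values in every sample were given by rule for Mki67, Top2a, Cdk1, Ccnb1, Pcna, Mcm5, Rrm2, Tyms, E2f1 and Foxm1 and for up to 4 called members per class. As 0 were called, other members named with values per sample were chosen after their values were seen. From the other lists, the 3 called genes with the largest absolute log2 fold change per list and comparison, the D cyclins, Cdk4, Cdk6 and the CDK inhibitors were named. Promoters were ranked by the fold change without T-DC 1 for the same reason. Alternatives were a pseudocount of 0.1, no filter, a filter of 5 FPKM, TPM, quantile and median-of-ratios scaling, separate fits per comparison, array weights, no trend, voom on recovered reads, a replicate block, marker covariates, a fold threshold and leaving out each sample. T-DC 1 alone, and separate fits with the mean of T-mDC 2 and T-mDC 3 as 1 sample, were added after the data were seen. The single-cell data were not analysed here.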

Additional observations from a re-analysis of the deposited data

How the results depend on the processing

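The calls of the members depended on which T-DC libraries entered the fit. Of 26 alternatives, 21 called 0 of the 48 members in any comparison, and the others are given as replication, mitosis and transcription factor genes in turn. Array weights, estimated from the spread of each library in a fit that did not fully converge, called 24, 20 and 4 between T-DCs and N-mDCs, 23, 20 and 4 between T-DCs and T-mDCs, and 16, 20 and 4 between T-mDCs and N-mDCs. Leaving out each library in turn gave 0 to 24, 0 to 20 and 0 to 4 against N-mDCs, 0 to 23, 0 to 20 and 0 to 4 against T-mDCs, and 0 to 5, 0 to 18 and 0 to 3 between T-mDCs and N-mDCs, and all of these calls came without T-DC 1. With T-DC 1 alone, 6, 12 and 3 were lower than in T-mDCs, and 8, 16 and 3 were higher in T-mDCs than in N-mDCs. With only the groups compared the last comparison called 8, 16 and 3 as well, and with the erythroid covariate 0, 13 and 1.

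Fold changes that turned were, with T-DC 1 alone, those against N-mDCs of Mki67 (-0.064), Top2a (-0.18), Cdk1 (-0.13), Pcna (-0.17), Mcm5 (-0.21), Rrm2 (-0.13), Tyms (-0.50) and Foxm1 (-0.30), and those against T-mDCs of Mki67 (-1.75), Top2a (-1.82), Cdk1 (-1.15), Ccnb1 (-1.18), Pcna (-0.26), Mcm5 (-0.97), Rrm2 (-1.23), Tyms (-1.43), E2f1 (-0.43) and Foxm1 (-1.61). With the erythroid covariate they were Cdk1 (-0.12), Pcna (-0.20), Mcm5 (-0.21), Rrm2 (-0.035), Tyms (-0.42), E2f1 (-0.084) and Foxm1 (-0.13) against N-mDCs, and Mki67 (-2.44), Top2a (-2.18), Cdk1 (-1.85), Ccnb1 (-1.83), Pcna (-0.63), Mcm5 (-1.48), Rrm2 (-2.02), Tyms (-1.92), E2f1 (-0.81) and Foxm1 (-1.93) against T-mDCs. In TPM, Top2a (-0.0051) and Foxm1 (-0.19) turned against T-mDCs. Leaving out a library gave Top2a -0.27 to 1.41, Tyms -0.069 to 1.48 and Foxm1 -0.32 to 1.06 against T-mDCs, and Pcna -0.059 to 0.17 between T-mDCs and N-mDCs. The cause of the turns with the covariate was not tested.

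Over all genes, the calls ran from 377 to 8485 between T-DCs and N-mDCs, from 0 (erythroid covariate, 2269 at an unadjusted p under 0.05 by limma) to 9923 between T-DCs and T-mDCs, and from 2 to 3841 between T-mDCs and N-mDCs. In TPM, 376 were higher and 1339 lower between T-DCs and T-mDCs, and 49 and 50 between T-mDCs and N-mDCs. The replicate numbers only name the samples, and not every sample deviated most like those of its own number, as the correlations of same-numbered deviations ran from -0.4745 to 0.2687. With a replicate block, 0 members were called, 1378 genes were called between T-DCs and N-mDCs and 78 between T-mDCs and N-mDCs, and Cdkn1a, Cdkn2b, Pola2, Pttg1 and Rnaseh2a lost a call. Of the 432 member values, 2 rested on fewer than 50 reads.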
